A study of Homo sapiens with 8 samples.

Results

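Megakaryocyte and platelet genes were followed in K562 cells that carry a C/EBPα fusion protein, given estradiol, which is used to activate it, or vehicle. The list held 42 genes of platelet adhesion, activation, granules and cytoskeleton, taken by gene name from a list that was drawn up with earlier results of these data known. Of these, 40 had at least 1 probe set whose annotation named that gene alone, among 19775 genes measured in the same way. GP1BB, a chain of the platelet receptor for von Willebrand factor, was annotated only on 2 probe sets that also named other genes, and SH2B3, an adaptor that restrains thrombopoietin signalling, had none listed, so neither was analysed here. K562 is an established human leukaemia line with the BCR-ABL fusion. The cells of both groups stably expressed p42-C/EBPα, the long isoform of a granulocyte transcription factor, joined to an oestrogen receptor (ER), a part that keeps such a fusion out of the nucleus until oestradiol is added. Cultures received 1 µM beta-estradiol (4 arrays) or the ethanol vehicle (4 arrays) for 6 h, in medium without phenol red and with 10% serum stripped by charcoal. No cells without the fusion are named in the labels, so effects of estradiol itself and of the fusion cannot be told apart, and nothing more is given on whether the line is 1 clone.

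Megakaryocytes and red cells share a precursor and much of their transcription machinery, with GATA1, its partners and GFI1B acting in both lineages. Megakaryocytes then build surface receptors for collagen, von Willebrand factor, fibrinogen, thrombin, ADP and thromboxane, store proteins in granules, and divide their cytoplasm into platelets along bundles of β1-tubulin. K562 cells carry erythroid features and can be pushed towards megakaryocytic ones by phorbol esters, while C/EBPα drives precursors towards granulocytes.

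Values are log2 expression levels, so a difference of 1 is a doubling. A gene is called higher or lower where limma gave a Benjamini-Hochberg adjusted p below 0.05 over all 19775 genes. Differences are estradiol minus vehicle, with the moderated standard error (SE). Array medians ran from 4.97 to 5.08 and lower quartiles from 3.67 to 3.74, and 4 arrays per group limit the precision of every value. Whole arrays correlated at 0.994 to 0.998 within groups and at 0.990 to 0.994 between them. No detection calls were used here, so no level is shown to be above background. The sample titles call the arrays biological replicates and the sources used here say no more on separate cultures, so the p-values describe only how these arrays varied.

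With estradiol a small set of platelet genes fell and THBS1 rose, while ITGA2B, ITGB3, GP1BA, GP5 and GP9, which encode defining platelet receptors, and the granule genes PF4, PPBP and VWF did not pass the test. Genes for the caveolar protein CAVIN2, the nuclease-domain protein ENDOD1, the aggregation receptor PEAR1 and β1-tubulin TUBB1 fell by more than 2-fold, and the thromboxane receptor TBXA2R fell 1.95-fold. THBS1, which encodes the matrix protein thrombospondin 1 of platelet α-granules, rose 6.37-fold. Of the 40 genes 8 fell, 2 rose and 30 were not called. Called genes made up 25% of the list, against 17.9% of all genes, falls 20% against 9.60%, and rises 5% against 8.29%. Tested alone, the 12785 genes above the median of all probe sets held 17.5% falls and 15% rises. They included 30 of the 40 listed genes, with 8 falls and 2 rises. Called falls of at least 1.5-fold numbered 5 (12.5% of the 40, against 0.966% of all genes), and such rises 1 (2.5%, against 1.95%). Separate groups, with every estradiol value on one side of every vehicle value, were seen for 11 of the 40 (27.5%, against 24.1% of all genes), lower with estradiol for 9 (12.9% of all genes) and higher for 2 (11.1% of all genes). The median difference of the 40 genes was −0.06, against −0.03 for all genes. Of the 40 differences 28 were below 0 (70%, against 58.8% of all genes). In bulk RNA a smaller share of cells that express a gene and less RNA per cell cannot be told apart.

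**Figure D1:**
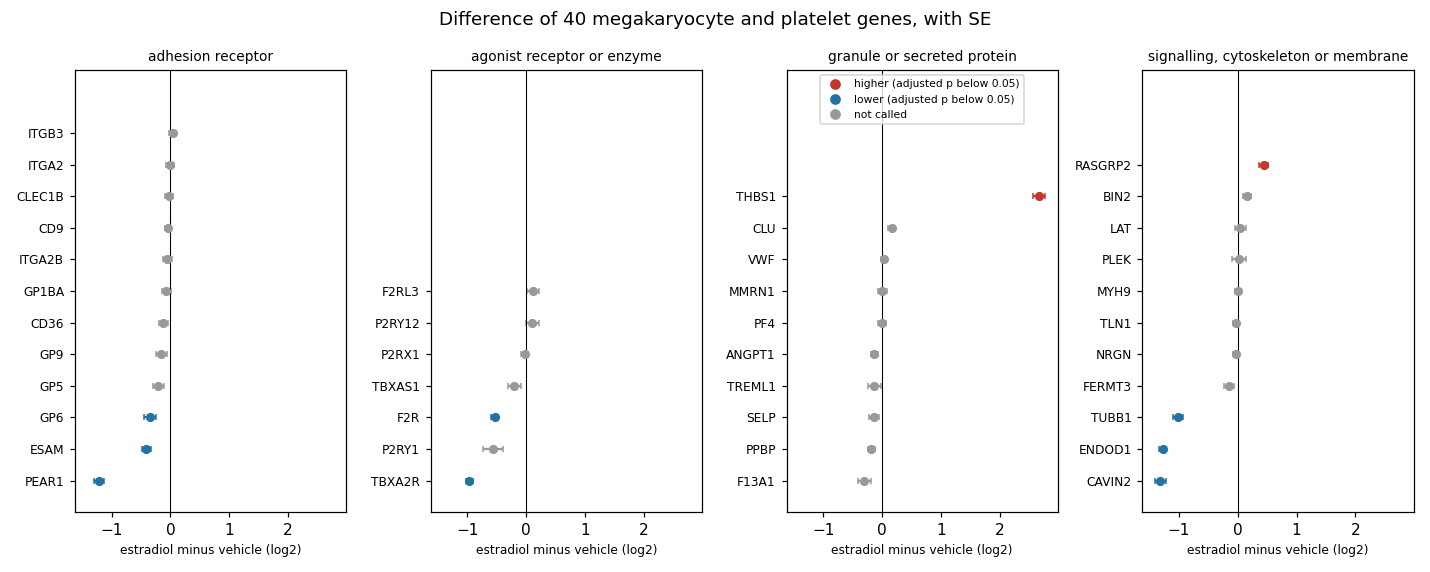
Difference between estradiol and vehicle for the 40 measured genes in 4 groups by role, on the log2 scale with its SE (horizontal bars), coloured by call. THBS1 stands alone at 2.67, 5 genes lie at −0.97 or below, and most others lie close to 0.

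Among the 12 measured adhesion receptors, 3 fell, 0 rose by limma (0 also at an unadjusted p below 0.05) and 9 were not called, with a median difference of −0.10. Falls made up 25% of these receptors, against 9.60% of all genes. The falls were in PEAR1, which strengthens platelet contacts, ESAM, a cell-junction molecule, and GP6, the collagen receptor glycoprotein VI. PEAR1 levels were 5.34, 5.55, 5.41 and 5.47 with estradiol, against 6.81, 6.49, 6.53 and 6.76 with vehicle. All arrays with estradiol lay below all with vehicle, a 2.31-fold fall (−1.21 ± 0.08, limma adjusted p = 1.51e-05). ESAM differed by −0.41 ± 0.08 (limma adjusted p = 0.00461), also with no overlap between groups. GP6 levels were 6.10, 5.97, 5.93 and 6.15 with estradiol, against 6.63, 6.16, 6.43 and 6.31 with vehicle. The GP6 groups nearly met, at 6.15 in estradiol replicate 4 and 6.16 in vehicle replicate 2, and the difference was −0.34 ± 0.10 (limma adjusted p = 0.0415). That call was lost without any 1 array other than vehicle replicate 2, at limma adjusted p from 0.0532 to 0.108, and with median centring of each array (0.0721).

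The fibrinogen receptor chains ITGA2B and ITGB3, which define the lineage as CD41 and CD61, did not pass the test. ITGA2B levels were 5.96, 6.20, 6.07 and 6.09 with estradiol, against 6.26, 5.95, 6.12 and 6.20 with vehicle, with a difference of −0.05 ± 0.08 (limma adjusted p = 0.725). ITGB3 levels were 5.76, 5.69, 5.80 and 5.81 with estradiol, against 5.61, 5.68, 5.76 and 5.85 with vehicle, with a difference of 0.04 ± 0.06 (adjusted p = 0.726). In both genes the groups overlapped, and none of the 3 other ITGA2B and 6 other ITGB3 probe sets was called.

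The receptor for von Willebrand factor was measured through its chains GP1BA, GP5 and GP9. GP1BA levels were 5.42, 5.40, 5.28 and 5.57 with estradiol, against 5.40, 5.46, 5.67 and 5.43 with vehicle, a difference of −0.07 ± 0.08 (limma adjusted p = 0.635). GP9 levels were 5.66, 5.84, 5.92 and 5.96 with estradiol, against 5.90, 6.26, 5.94 and 5.91 with vehicle, a difference of −0.15 ± 0.10 (adjusted p = 0.357). Vehicle replicate 2 stood above the other GP9 values, and the groups overlapped in both genes. GP5 levels were 3.26, 3.21, 3.22 and 3.07 with estradiol, against 3.64, 3.37, 3.39 and 3.17 with vehicle, below the lower quartile on all 8 arrays, with a difference of −0.20 ± 0.09 (adjusted p = 0.187). The remaining receptors that were not called were ITGA2, a collagen-binding integrin chain (−0.01), CD9, a tetraspanin (−0.05), the scavenger receptor CD36 (−0.12) and CLEC1B, the podoplanin receptor CLEC-2 (−0.03). ITGA2, CD36 and CLEC1B lay below the array median on all 8 arrays.

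**Figure D2:**
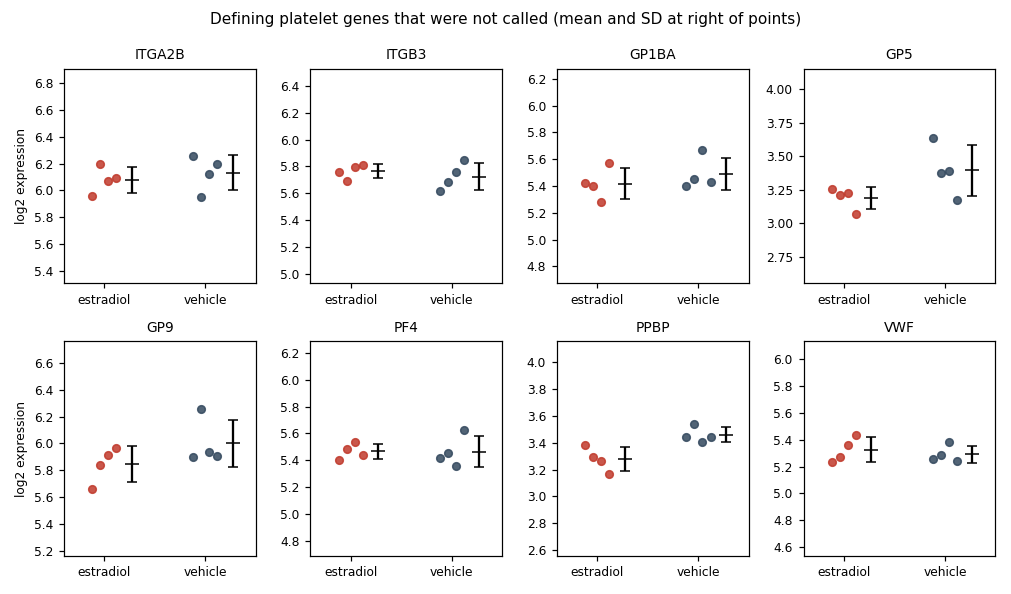
Log2 level on each array of 8 defining platelet genes that were not called, estradiol left and vehicle right, with mean and SD beside the points and the same span on every axis. The groups overlap in all of them except PPBP.

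Of the 7 receptors and enzymes that respond to soluble agonists or make one, 2 fell, 0 rose by limma (0 also at an unadjusted p below 0.05) and 5 were not called. Falls made up 28.6% of them, against 9.60% of all genes. TBXA2R, the receptor through which thromboxane activates platelets, had levels of 7.04, 7.16, 7.15 and 7.08 with estradiol, against 8.22, 8.06, 8.01 and 8.0 with vehicle. The groups were separate and the difference was −0.97 ± 0.06 (limma adjusted p = 6.79e-06). F2R, the thrombin receptor PAR1, had levels of 6.66, 6.58, 6.70 and 6.75 with estradiol, against 7.23, 7.06, 7.30 and 7.25 with vehicle. It fell 1.45-fold without overlap (−0.54 ± 0.06, adjusted p = 0.000356). When all probe sets of a gene were averaged, TBXA2R differed by −0.50 (limma adjusted p = 1.01e-04) and F2R by −0.24 (limma adjusted p = 0.00488).

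The ADP receptor gene P2RY1 had the largest difference among genes that were not called. Its levels were 3.57, 3.61, 3.41 and 3.73 with estradiol, against 4.67, 3.72, 4.11 and 4.06 with vehicle. Vehicle replicate 2 lay within the estradiol range, the difference was −0.56 ± 0.17 (limma adjusted p = 0.0565), and all 8 values lay below the array medians. Without vehicle replicate 2 it was called, at −0.70 (adjusted p = 0.0144), as it was under 4 other alternatives. TBXAS1, thromboxane synthase, differed by −0.20 ± 0.11 and was called only without vehicle replicate 1 (−0.30, adjusted p = 0.0360) among the alternatives run. Differences were 0.12 for F2RL3, the thrombin receptor PAR4, 0.11 for the second ADP receptor P2RY12, and −0.03 for the ATP-gated channel P2RX1. P2RY12 lay below the lower quartile on all arrays.

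Among the 10 granule and secreted proteins THBS1 rose, 0 fell by limma (3 at an unadjusted p below 0.05) and 9 were not called. That made 10% called, against 17.9% of all genes. THBS1 levels were 9.59, 9.62, 9.42 and 9.53 with estradiol, against 7.04, 6.55, 7.02 and 6.86 with vehicle. The lowest value with estradiol stood far above the highest with vehicle, and the difference was 2.67 ± 0.10 (limma adjusted p = 4.80e-07). All 7 THBS1 probe sets were called higher, with differences of 0.97 to 2.71.

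PF4 and PPBP encode the platelet chemokines CXCL4 and CXCL7. PF4 levels were 5.40, 5.49, 5.53 and 5.44 with estradiol, against 5.42, 5.45, 5.36 and 5.63 with vehicle, a difference of 0.00 ± 0.06 (limma adjusted p = 0.990), with overlapping groups. PF4 has the near-identical neighbour PF4V1, so its signal cannot be assigned to 1 copy. PPBP levels were 3.39, 3.30, 3.27 and 3.17 with estradiol, against 3.45, 3.54, 3.41 and 3.45 with vehicle, all below the lower quartile of their arrays. The PPBP groups did not overlap, and the difference of −0.18 ± 0.06 missed the threshold (adjusted p = 0.0543). It was called without estradiol replicate 1 (−0.22, adjusted p = 0.0312) and with array quality weights (−0.19, adjusted p = 0.0231).

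VWF, von Willebrand factor, had levels of 5.24, 5.27, 5.36 and 5.44 with estradiol, against 5.26, 5.29, 5.38 and 5.24 with vehicle, a difference of 0.04 ± 0.06 (limma adjusted p = 0.762) with overlapping groups. F13A1, the clotting factor XIII A chain, differed by −0.30 ± 0.11 (adjusted p = 0.0881). ANGPT1, the vessel-stabilizing ligand angiopoietin 1, averaged 9.69 ± 0.06 with estradiol and 9.82 ± 0.10 with vehicle (SD, n = 4 each), with a difference of −0.13 ± 0.06 (limma adjusted p = 0.174). CLU, the chaperone clusterin, differed by 0.17 ± 0.06 (limma adjusted p = 0.107). Without vehicle replicate 2 both were called, ANGPT1 at −0.18 (adjusted p = 0.0299) and CLU at 0.21 (0.0356). Differences were −0.13 for SELP, the adhesion molecule P-selectin of granule membranes, −0.13 for the granule receptor TREML1 and 0.01 for the factor V carrier MMRN1, which lay below the lower quartile on all arrays.

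The 11 measured genes of signalling, cytoskeleton and membrane shape held 3 falls (27.3%, against 9.60% of all genes), 1 rise (9.09%, against 8.29%) and 7 genes that were not called. CAVIN2, a coat protein of caveolae, had levels of 5.81, 6.04, 5.94 and 5.84 with estradiol, against 7.48, 7.0, 7.19 and 7.21 with vehicle. This 2.49-fold fall was the largest on the list (−1.32 ± 0.10, limma adjusted p = 2.27e-05), and its second probe set showed −1.70. ENDOD1 levels were 6.76, 6.81, 6.70 and 6.83 with estradiol, against 8.11, 7.96, 8.13 and 8.03 with vehicle, a 2.43-fold fall (−1.28 ± 0.05, adjusted p = 6.36e-07). TUBB1, the β-tubulin of the platelet marginal band, had levels of 5.15, 5.44, 5.41 and 5.39 with estradiol, against 6.53, 6.17, 6.33 and 6.42 with vehicle. It fell 2.03-fold (−1.02 ± 0.09, limma adjusted p = 6.94e-05). The groups were separate in all 3 genes, and the TUBB1 difference was −0.67 with the mean of both probe sets (adjusted p = 3.55e-05).

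RASGRP2, an exchange factor that switches on the integrin activator RAP1, was the gene of this set that rose, 1.36-fold (0.44 ± 0.08, limma adjusted p = 0.00387). With the mean of its 4 probe sets the rise was 0.20 (adjusted p = 0.0234). The proteins that bind the integrin tail in platelets were not called, kindlin-3, FERMT3, at −0.15 ± 0.08 and talin, TLN1, at −0.03 ± 0.05. Nor were the myosin heavy chain MYH9 (−0.0), the protein kinase C substrate PLEK (0.02), the adaptor LAT (0.04), the membrane-bending protein BIN2 (0.16) or the calmodulin-binding protein NRGN (−0.04). Their limma adjusted p-values ran from 0.162 to 0.991.

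**Figure D3:**
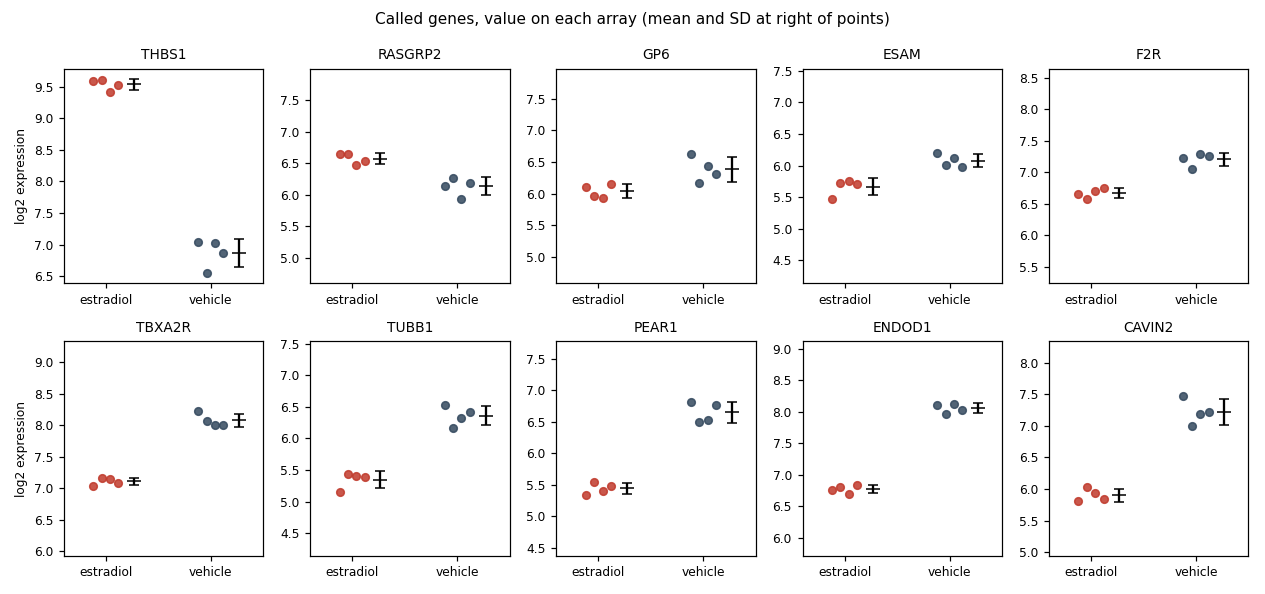
Log2 level on each array of the 10 called genes, estradiol left and vehicle right, with mean and SD beside the points and the same span on every axis. In each gene the 4 values with estradiol are separate from the 4 with vehicle, and GP6 has the narrowest gap.

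Promoter sequence is shown for THBS1, which rose most, and for the 4 falls of more than 2-fold, because these genes moved furthest and their starts can be compared base by base. Of the 40 genes 30 had an entry in the RefSeq promoter table (build GRCh38.p14). The 250 bases before the annotated start were searched on both strands for a GATA motif, spelled AGATAA or else TGATAA, for an ETS motif, spelled AGGAAG or else CGGAAG, and for a C/EBP motif, spelled TTGCNNAA. Each is printed on the strand of the gene, 5′ to 3′, and capitals mark ETS matches, the one family found in them. THBS1 is at chr15:39580829-39581078 (plus strand), CAVIN2 at chr2:191847089-191847338 (minus strand), ENDOD1 at chr11:95089596-95089845 (plus strand), PEAR1 at chr1:156893468-156893717 (plus strand) and TUBB1 at chr20:59019179-59019428 (plus strand).
THBS1: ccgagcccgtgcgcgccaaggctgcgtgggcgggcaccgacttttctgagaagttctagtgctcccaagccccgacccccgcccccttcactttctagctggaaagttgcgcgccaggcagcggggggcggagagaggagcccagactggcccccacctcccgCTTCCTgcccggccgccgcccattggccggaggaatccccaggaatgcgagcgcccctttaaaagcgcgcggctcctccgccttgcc
CAVIN2: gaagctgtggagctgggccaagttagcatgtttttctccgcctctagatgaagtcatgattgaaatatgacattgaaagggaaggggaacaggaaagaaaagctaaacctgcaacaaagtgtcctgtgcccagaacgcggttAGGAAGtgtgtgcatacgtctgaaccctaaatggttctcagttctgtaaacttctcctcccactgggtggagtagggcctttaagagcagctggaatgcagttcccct
ENDOD1: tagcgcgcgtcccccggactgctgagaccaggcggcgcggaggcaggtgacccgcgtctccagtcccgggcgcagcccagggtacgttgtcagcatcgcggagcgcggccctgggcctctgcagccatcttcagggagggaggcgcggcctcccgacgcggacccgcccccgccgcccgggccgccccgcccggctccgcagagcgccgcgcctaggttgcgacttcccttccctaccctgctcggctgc
PEAR1: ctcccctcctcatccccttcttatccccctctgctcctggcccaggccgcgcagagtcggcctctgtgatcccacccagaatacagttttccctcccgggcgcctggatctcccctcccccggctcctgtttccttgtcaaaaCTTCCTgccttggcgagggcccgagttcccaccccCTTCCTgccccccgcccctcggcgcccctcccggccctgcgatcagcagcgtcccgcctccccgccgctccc
TUBB1: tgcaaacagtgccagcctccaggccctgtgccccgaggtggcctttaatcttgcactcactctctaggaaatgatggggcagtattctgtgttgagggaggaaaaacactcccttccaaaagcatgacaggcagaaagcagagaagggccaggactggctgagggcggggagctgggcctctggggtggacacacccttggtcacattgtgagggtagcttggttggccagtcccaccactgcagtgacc

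PEAR1 held AGGAAG on the opposite strand from 107 and from 72 bases before the start. THBS1 held it on the opposite strand from 87 bases before, and CAVIN2 on its own strand from 108. No searched motif was in the ENDOD1 window or the TUBB1 window. An ETS motif was in 25 of the 43 windows of the list (58.1%), against 40.8% of all 35116 windows, and a GATA motif in 9 (20.9%), against 14.6%. The C/EBP motif was in 4 (9.30%), against 9.05%. The spellings of 1 family differ in their first letter alone, a match on the opposite strand is printed as its reverse complement, and no matches overlap in the 5 sequences printed. Several windows can belong to 1 gene, and a match is a string of letters and not a bound site.

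The 40 genes had 86 probe sets, of which 21 were called when tested one by one. Among the 22 genes with several, 7 had differences of both signs. Among the 10 called genes 3 were measured by 1 probe set, and in THBS1, CAVIN2, ENDOD1 and TUBB1 every probe set passed in the direction of the gene. The second probe set was at −0.90 for ENDOD1 and at −0.32 for TUBB1, where it barely passed (limma adjusted p = 0.04995). In the other 3 called genes at least 1 further probe set was not called. Those were TBXA2R, with its other probe sets at −0.67, −0.25 and −0.12, F2R, with 0.05, and RASGRP2, with 0.27, 0.15 and −0.08. No probe set was called against the direction of its gene, and 0 of the 30 genes that were not called had another probe set that was. When every probe set was tested on its own, 13.1% of all 41097 were called. GP6, with 1 probe set, was then at limma adjusted p = 0.0506.

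**Figure D4:**
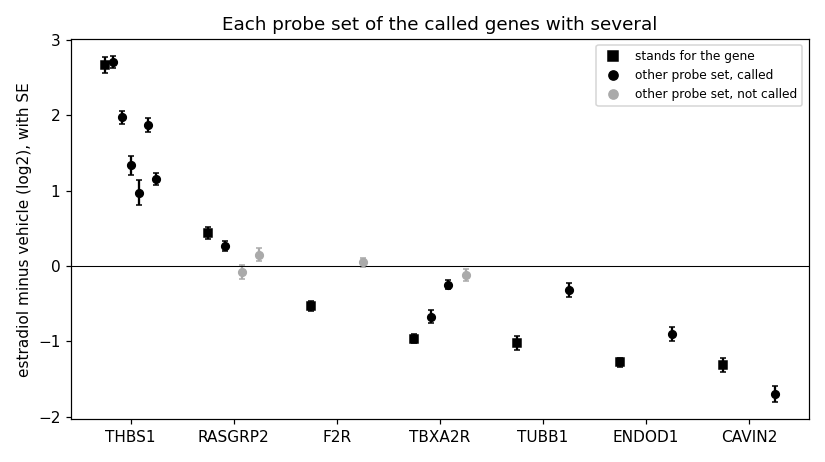
Difference between estradiol and vehicle for each probe set of the 7 called genes that have several, on the log2 scale with its SE. Squares stand for the gene, black points were called and grey points were not, and all black points share the sign of their gene.

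Other genes of megakaryocytes and platelets were described through 4 lists of 113 genes, 106 of them measured, with the 42 genes above left out. Among 17 measured megakaryocyte regulators 9 fell (52.9%, against 9.60% of all genes) and 4 rose (23.5%, against 8.29%), with a median difference of −0.22. Called genes made up 76.5%, against 17.9% of all genes. Above the median of all probe sets lay 16 of the 17, with 9 falls and 4 rises when genes above it were tested alone. Of all genes above it 17.5% fell and 15% rose. The falls were led by the repressor GFI1B (−1.58 ± 0.04), the factor LYL1 (−1.06 ± 0.04) and GATA1 (−0.89 ± 0.04). The rises were led by NFE2, which drives the last steps of platelet formation (0.86 ± 0.04), MRTFA, a partner of serum response factor (0.81 ± 0.10), and the kinase JAK2, which signals for the thrombopoietin receptor (0.75 ± 0.05). With the mean of its probe sets MRTFA showed 0.17 and was not called (limma adjusted p = 0.280). Named after their values were seen, the GATA1 partners LMO2 (−0.51), LDB1 (−0.46) and ZFPM1 (−0.34) fell, while TAL1 (0.08 ± 0.04) and the ETS factor FLI1 (0.08 ± 0.07) were not called. FLI1 lay below the array medians, averaging 4.76 with estradiol and 4.68 with vehicle.

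Of 33 measured platelet signalling genes 11 rose (33.3%, against 8.29% of all genes) and 2 fell (6.06%, against 9.60%). When genes above the median of all probe sets were tested alone, this list held 11 rises and 2 falls. Of all genes above it 15% rose and 17.5% fell. The largest rises were in the G-protein regulator RGS18 (14.2-fold), the Fc receptor FCGR2A (2.07-fold) and the lipid kinase chain PIK3CB (1.42-fold). RGS18 levels were 7.96, 7.80, 7.71 and 7.82 with estradiol, against 4.06, 3.94, 4.0 and 3.97 with vehicle, and the vehicle values lay below the array medians, so the size of its fold rests on a low level. FCGR2A has close copies, so its signal cannot be assigned to that gene alone, and with the mean of its probe sets the difference was 0.57. The falls were RGS10 (−0.51 ± 0.04), another regulator of G proteins, and the lipid kinase chain PIK3CG (−0.30 ± 0.09, limma adjusted p = 0.0457). The PIK3CG call was lost without any 1 array other than vehicle replicate 2 (adjusted p from 0.0503 to 0.113), with the replicate number as a block (0.123), with median centring (0.0698), with probe sets averaged (0.149) and with the probe set of largest SD (0.256). With that block 7 of these genes rose and 1 fell.

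Platelet cytoskeleton genes, 21 of them measured, held 4 rises (19%, against 8.29% of all genes) and 2 falls (9.52%, against 9.60%). All 21 lay above the median of all probe sets, where 15% of all such genes rose and 17.5% fell. Vinculin, VCL, which ties integrins to actin, had levels of 11.33, 11.34, 11.22 and 11.26 with estradiol, against 10.19, 10.01, 10.07 and 10.13 with vehicle, a 2.28-fold rise with no overlap. Tropomyosin 4, TPM4, rose 2.27-fold and the actin crosslinker ACTN1 by 0.29 ± 0.05. The falls were WIPF1, a partner of the Wiskott-Aldrich protein (−0.68 ± 0.12), and the α-tubulin TUBA4A (−0.31 ± 0.04). When probe sets were averaged, TPM4 differed by 0.73, ACTN1 by 0.18 and WIPF1 by −0.38.

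In the list of granule contents and granule formation 6 of 35 measured genes rose (17.1%, against 8.29% of all genes) and 3 fell (8.57%, against 9.60%). When genes above the median of all probe sets were tested alone, this list held 6 rises and 4 falls. Of all genes above it 15% rose and 17.5% fell, so the excess of rises was smaller against genes of such levels. SRGN, the proteoglycan serglycin that packs granule proteins, had levels of 6.79, 6.95, 6.95 and 6.86 with estradiol, against 5.39, 4.82, 5.31 and 5.25 with vehicle, a 3.24-fold rise without overlap. RAB27B, a small GTPase of granule release, rose 1.83-fold and HPS3, of lysosome-related organelle formation, 1.80-fold. RAB38, another GTPase of these organelles (−0.39 ± 0.06), NBEAL2, the gene of grey platelet syndrome (−0.25 ± 0.06), and TGFB1 (−0.16 ± 0.04) fell. The NBEAL2 call was lost without estradiol replicate 4 (limma adjusted p = 0.0563). TGFB1 was no longer called when estradiol replicate 1, 2 or 4, or vehicle replicate 1 or 4, was left out (limma adjusted p from 0.0554 to 0.0862), with the replicate block (0.0920), with median centring (0.145) or with its probe sets averaged (−0.08, adjusted p = 0.330). With its probe set of largest SD the adjusted p was 0.992. Without estradiol replicate 4 the falls in this list numbered 1. With the mean of all probe sets SRGN rose by 0.99 and RAB27B by 0.46 on the log2 scale.

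**Figure D5:**
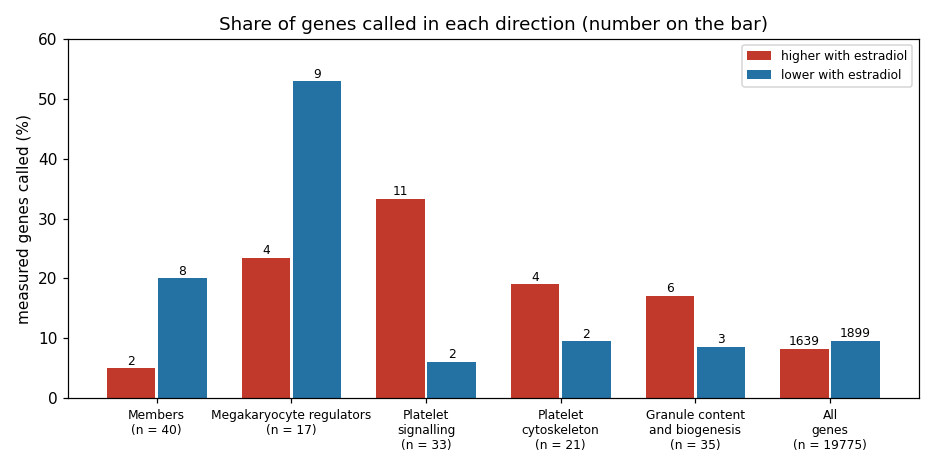
Share of measured genes called higher (red) or lower (blue) with estradiol in the 40 genes described here, in 4 lists of related genes and in all genes, with the number called on each bar. Falls outnumber rises in the 40 genes (8 and 2) and among regulators (9 and 4), and rises outnumber falls in the other 3 lists.

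Markers of other cell types were read as a check on the cells. Of 6 measured erythroid markers 3 fell (50%, against 9.60% of all genes) and 0 rose by limma (0 also at an unadjusted p below 0.05). The falls were the blood group protease KEL (−0.52 ± 0.04), the anion exchanger SLC4A1 (−0.30 ± 0.07) and embryonic globin HBE1 (−0.17 ± 0.04), and the mean level of these markers ran from 9.20 to 9.31 with estradiol and from 9.43 to 9.50 with vehicle. Their summed log2 levels ran from 55.23 to 55.84 with estradiol and from 56.55 to 56.99 with vehicle, and their part in the falls of platelet genes was not tested. For 7 measured defining platelet markers the mean level ran from 5.25 to 5.35 with estradiol and from 5.50 to 5.56 with vehicle. TUBB1 was the 1 called (14.3%, against 17.9% of all genes). Without TUBB1 the mean of the other 6 ran from 5.26 to 5.34 with estradiol and from 5.34 to 5.41 with vehicle, and these ranges overlapped. None of 5 monocyte, 6 T cell and 4 B cell markers was called by limma, against 17.9% of all genes. Of these markers 0 passed an unadjusted p below 0.05, and 0 had separate groups, against 24.1% of all genes. Below the array median on all 8 arrays lay 4 of the monocyte, 3 of the T cell and 1 of the B cell markers. Of 5 endothelial markers, a cell type that shares several of the 40 genes, PECAM1 rose (0.56 ± 0.07) and EGFL7 fell (−0.79 ± 0.09). That made 20% rises, against 8.29% of all genes, and 20% falls, against 9.60%. PECAM1 is also found on platelets.

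The genes whose 8 values lay closest to those of THBS1, after each gene was centred on its mean, were PLIN2 (Euclidean distance 0.330), ACSL1 (0.388) and ERICH2-DT (0.398). PLIN2, a coat protein of lipid droplets, had levels of 11.39, 11.31, 11.34 and 11.28 with estradiol, against 8.95, 8.63, 8.78 and 8.69 with vehicle. Its difference was 2.56 ± 0.07, that of ACSL1, which activates fatty acids, 2.89 ± 0.08, and that of ERICH2-DT 2.62 ± 0.18. The distance was taken over 8 arrays on the log2 scale, so it mostly picks genes whose groups differ by a similar amount.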

How the data were processed

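The deposited table holds log2 expression levels from RMA, run by the authors as the submitters' processing notes record. RMA removes background, brings every array to one distribution and sums up each probe set, which can mask a shift common to most genes and shrink changes at low levels. Per the labels' protocols 200 ng of total RNA was amplified and labelled with biotin. Its version and the chip definition are not given here. Per the labels the vehicle was ethanol, whose stated concentration was not used.

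Of 54675 probe sets 41097 had 1 gene symbol in the platform annotation, and the one with the highest mean over the 8 arrays stood for each of 19775 genes. Genes were tested two-sided in R 4.3.3 by limma 3.58.1, using lmFit and eBayes with neither trend nor block, without a filter, and adjusted over all genes. The fit was tested on simulated data. Figures were drawn with matplotlib 3.10.9. Promoter sequences came from RefSeq.

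The genes and lists were chosen with earlier results of these data known. Values per array were to be given for called genes with a log2 difference of at least 0.5 and for 11 defining genes (ITGA2B, ITGB3, GP1BA, GP1BB, GP5, GP9, GP6, PF4, PPBP, VWF and TUBB1). From each list the 3 largest called rises and falls were named. Alternatives were a replicate block, 3 scalings, 2 filters on dim genes, 2 other choices of probe set, a variance trend, array weights, stricter thresholds and each array left out.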

Additional observations from a re-analysis of the deposited data

Results flagged for a closer look

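In 3 of 80 sets of 4 values (40 genes, each in both groups) 1 array stood apart, judged by its gap to the nearest other value as a share of the range of the 4. Such a gap is reached by chance in about 1 of 20 sets. FERMT3 was 5.98 in estradiol replicate 1 and 6.27 to 6.31 in the other 3 (gap 0.883 of the range). BIN2 was 6.25 in estradiol replicate 1 and 6.35 to 6.37 in the others (0.864). The GP9 level of 6.26 in vehicle replicate 2 compared with 5.90 to 5.94 on the remaining vehicle arrays (0.895). None of these genes was called with all arrays, nor under any alternative run.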

How the results depend on the processing

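The 8 falls and 2 rises of the 40 genes became 7 to 10 falls and 2 to 3 rises when 1 array was left out, 7 and 2 with median centring, and 8 and 2 with the replicate number as a block, where the same 10 genes were called. With at least a 1.5-fold change required they numbered 5 and 1. In the 4 other lists together 25 rises and 16 falls became 23 to 26 and 12 to 17 without 1 array, 21 and 13 with the block, and 12 and 4 with the fold limit. Same-numbered arrays deviated from their group means with correlations of −0.05, −0.21, 0.09 and 0.11 over all genes, so the numbers were not taken as pairs. Estradiol replicates 1 and 2 correlated better with a vehicle array of another number. Estradiol replicate 4 correlated nearly equally with vehicle replicate 3 (0.1115) and vehicle replicate 4 (0.1105). Of the 10 called genes 9 kept their call under all 18 alternatives other than stricter thresholds, and GP6 lost it in 9. None reversed. Single lists moved further. Rises in platelet signalling numbered 7 (against 11) with the block, with the probe set of largest SD and at adjusted p below 0.01, and its falls 1 (against 2) with the block, with median centring, at that threshold and without any 1 array other than estradiol replicate 3 or vehicle replicate 2. Cytoskeleton rises numbered 7 (against 4) with the variance trend. Granule falls numbered 5 (against 3) with that trend and with quantile normalization again, and 1 at adjusted p below 0.01. With the fold limit regulator falls numbered 3 (against 9), platelet signalling rises 2 and falls 0 (against 11 and 2), cytoskeleton rises 2 and falls 1 (against 4 and 2), and granule falls 0 (against 3). Genes that were not called and passed under some alternative were P2RY1 (5 alternatives), ANGPT1 and CLU (4 each), PPBP (2) and TBXAS1 (1). Of the 40 genes 9 lay below the array median on all arrays, where the size of a change may be understated.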
